A study of Homo sapiens with 4 samples.

Results

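The RASSF genes encode scaffold proteins named for their RAS-association domain. RASSF1 to RASSF6 carry that domain together with a SARAH domain, through which they bind the MST kinases of the Hippo pathway, and they are known as tumour suppressors that favour apoptosis or cell cycle arrest. BCL6 is a BTB zinc finger repressor that germinal centre B cells need and that many diffuse large B-cell lymphomas keep expressing. The question followed here was where BCL6 lay at these 6 genes, and how the peaks at RASSF6 differed from those at its paralogs.

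The 6 genes are among 19974 protein-coding genes of chromosomes 1 to 22 and X. RASSF6 was selected on the fold enrichment of its strongest region in these same peak lists, and the other members were added as its paralogs, so the values below are given as a description with no test. A peak was assigned to a gene where its summit lay in the gene or within 50 kb of either annotated end. The peaks came from CUT&RUN, in which an antibody guides a nuclease to its target on chromatin and the released fragments are sequenced. The cells were SUDHL5, an established line of diffuse large B-cell lymphoma, for which the labels give no treatment. There were 2 biological replicates with a BCL6 antibody, each with a deposited peak list, and 2 with normal rabbit IgG, whose values were not analysed here. The labels do not say whether the replicates were separate cultures, and peak lists carry no expression values, so neither the cell type nor the activity of the genes could be checked.

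Replicate 1 had 5237 peaks and replicate 2 had 3536, of which 16 and 11 belonged to the members. RASSF6 held 9 and 6 of them, and the other 5 genes together held 7 and 5. Each peak carries the fold enrichment at its summit, a ratio over local background computed by the authors' peak caller, and a −log10 q, which was at least 1.31 throughout. Over chromosomes 1 to 22 and X the median fold enrichment was 3.55 for replicate 1 and 3.74 for replicate 2. The number of fragments over a summit, called the pileup, was recovered from these values and had a median of 23 and 21. Pileups are given with exact 95% Poisson intervals, which cover counting error only. Read totals are unknown, since the sources used here do not give them.

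The sequences shown first are RefSeq promoter windows (GRCh38.p14, the hg38 assembly), from 250 bases before a listed start to 50 after it. They were chosen because the strongest RASSF6 region covered the RASSF6 window in both replicates, because the single RASSF5 region lay over the second RASSF5 start, and because the first RASSF5 start, without a peak, stands in contrast to it. All are written 5′ to 3′ on the strand of the gene, and capitals mark matches to TTCNNNNGAA, a pattern picked after the sequences had been seen.
RASSF6, upstream start, chr4:73620582-73620881, minus strand: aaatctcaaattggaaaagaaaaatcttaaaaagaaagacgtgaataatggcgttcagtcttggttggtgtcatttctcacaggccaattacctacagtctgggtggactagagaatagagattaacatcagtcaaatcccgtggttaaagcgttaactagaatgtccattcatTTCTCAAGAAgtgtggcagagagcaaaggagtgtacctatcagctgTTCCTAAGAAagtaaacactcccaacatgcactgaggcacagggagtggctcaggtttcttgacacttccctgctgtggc
RASSF5, second start, chr1:206556914-206557213, plus strand: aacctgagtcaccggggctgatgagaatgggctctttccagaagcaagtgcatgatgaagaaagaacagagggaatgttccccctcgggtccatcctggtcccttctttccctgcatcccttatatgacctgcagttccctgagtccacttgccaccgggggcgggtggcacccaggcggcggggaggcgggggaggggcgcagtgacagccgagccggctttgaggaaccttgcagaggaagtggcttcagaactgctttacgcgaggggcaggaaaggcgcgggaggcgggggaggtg
RASSF5, first start, chr1:206507281-206507580, plus strand: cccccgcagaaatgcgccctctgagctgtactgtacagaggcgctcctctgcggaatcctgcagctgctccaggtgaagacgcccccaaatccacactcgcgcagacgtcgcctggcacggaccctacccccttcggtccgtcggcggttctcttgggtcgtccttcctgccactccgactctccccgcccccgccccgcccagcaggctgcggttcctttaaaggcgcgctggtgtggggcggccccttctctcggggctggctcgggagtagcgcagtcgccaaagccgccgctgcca

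The members' promoter windows differed in base composition. GC made up 42.7% of the upstream RASSF6 window, which held 4 CpG sites, and 60.7% of the window of the second RASSF6 start 195 bp downstream, which held 16. The 2 RASSF6 windows share 105 bases. The paralogs' windows ranged from 55.3% GC and 7 CpG sites at RASSF2 to 81% and 45 at RASSF3, and the median over 22132 windows of protein-coding genes was 62.3% and 21. Only 9.51% of those windows had a lower GC share than the upstream RASSF6 window.

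Letters of the BCL6 consensus were searched on both strands of the 8 windows of the members. TTCCTAGAA, a core form of the BCL6 motif, was in none of them, and 0.289% of the 22132 windows held it. The looser TTCNNNGAA, which includes the first, was in none either, against 6.79% of all windows. A spacing longer by 1 base, TTCNNNNGAA, is neither of these forms and was added after the sequences had been seen. It matched in the 2 overlapping RASSF6 windows alone of the 8, and 5.44% of all windows held it. Because the pattern was picked from these same windows, the contrast with that share carries no weight. The 2 matches were TTCCTAAGAA, which both RASSF6 windows share, and TTCTCAAGAA, in the upstream window. The replicate 1 summit lay 358 bp downstream of the nearer edge of these windows, in sequence not used here.

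At RASSF6, which binds MST kinases, the apoptosis modulator MOAP1 and the p53 ligase MDM2, the peaks formed a group around the start of the gene. The gene runs on the minus strand of chromosome 4 from 73571550 to 73620631, and no other protein-coding gene reached into its window. The strongest region spanned 73618144 to 73621532, from upstream of both listed starts into the gene. It was enriched 13.8-fold in replicate 1 and 18.2-fold in replicate 2. Both replicates placed the summit almost at the same base, at 73620029 and 73620031, which is 407 and 405 bp downstream of the nearer start. The annotation used here gives gene spans and no exons, so exon and intron were not told apart.

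The pileup over that summit was 128 in replicate 1 (95% Poisson interval 107 to 152) and 98 in replicate 2 (79.6 to 119). The local background was 8.36 and 4.45, so the higher fold enrichment of replicate 2 went with a lower background and not with more fragments. The −log10 q was 96.0 and 87.4. By fold enrichment the peak ranked 3 of 5230 in replicate 1, behind peaks nearest to UBQLN1 and RNF11, and 1 of 3529 in replicate 2.

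**Figure D1:**
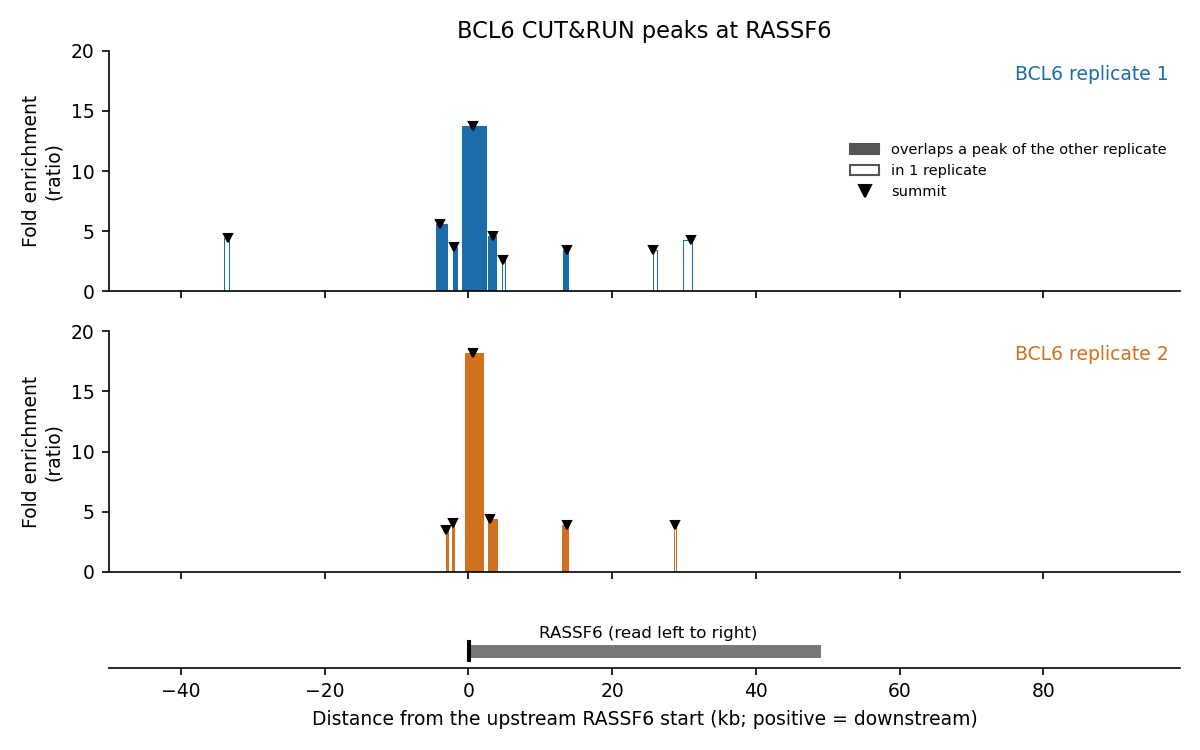
BCL6 peaks at RASSF6 by distance from the upstream start (x axis, kb, downstream to the right) and fold enrichment (y axis, ratio) in replicate 1 (top) and replicate 2 (middle). Bars span the peaks, filled where a peak of the other replicate overlapped and open where none did, triangles mark summits, and the grey bar is the gene with ticks at its listed starts. One peak per replicate stands at 13.8 and 18.2, and the others lie between 2.64 and 5.60.

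Another 4 regions at RASSF6 were found in both replicates, and together with the strongest they lay within 18.4 kb. Upstream of the starts, a region from 73622275 to 73622911 was enriched 3.72-fold in replicate 1 and 4.04-fold in replicate 2, and its pileup was 21 in each. Further upstream, the region from 73623424 to 73625074 had 5.60 and 3.46, with summits 789 bp apart. These 2 regions lay outside the gene, with summits 2.15 and 3.91 kb upstream of the upper start.

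Inside the gene, the region from 73616642 to 73617860 had fold enrichments of 4.57 in replicate 1 and 4.36 in replicate 2. It lay 3.18 kb downstream of the nearer start. The region from 73606706 to 73607547, 13.5 kb downstream, had 3.45 and 3.89. The 4 flanking regions were of moderate strength. By the smaller fold enrichment of both replicates, they ranked between 246 and 559 of 1311 reproducible regions, where the strongest ranked 1.

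The remaining RASSF6 peaks were in 1 list only. In replicate 1 they had fold enrichments of 4.27 (73589548 to 73590795), 3.41 (73594336 to 73594997), 2.64 (73615513 to 73615975) and 4.46 (73653938 to 73654686). In replicate 2 there was 1, from 73591709 to 73592003, with 3.94. The peak at 4.27 in replicate 1 had a −log10 q of 10.6 and a pileup of 41, more than any flanking peak found in both lists. The replicate 2 peak was its neighbour, 914 bp away with summits 2.14 kb apart, but did not overlap it.

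**Figure D2:**
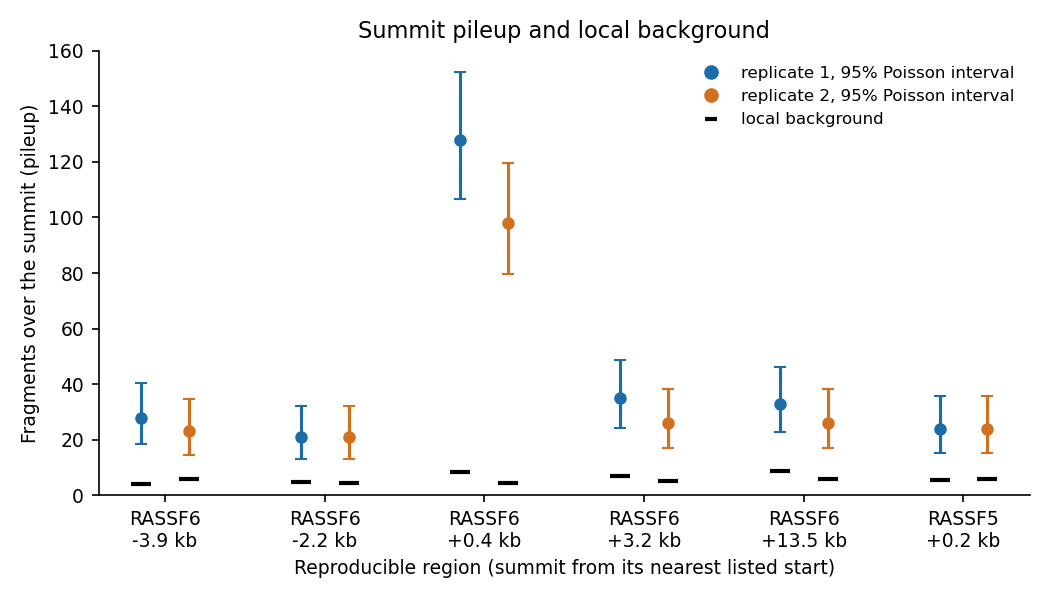
Fragments over the summit (y axis) at the 5 RASSF6 regions and the RASSF5 region found in both replicates, labelled on the x axis by distance from the nearest listed start. Points are pileups with exact 95% Poisson intervals, and black dashes are the recovered local backgrounds. The intervals of the strongest RASSF6 region, 107 to 152 and 79.6 to 119, lie above those of the other 5 regions, whose pileups are between 21 and 35.

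Such a group of regions was uncommon when counted by gene. At least 5 reproducible regions lay in or near 67 genes (0.335% of 19974), and RASSF6 was the one member among them. Neighbouring genes share regions, and 48 of the 67 were histone genes of chromosome 6. Among the other 19 were CD69, FOXP1 and LPP. In peaks per 100 kb of window, RASSF6 had 6.04 in replicate 1 and 4.02 in replicate 2. RASSF5 had 1.65 and 1.10, RASSF1 had 1.80 and 0, RASSF2 had 0.696 in each, RASSF3 had 0.344 in each, and RASSF4 had 0 and 0.735. The lists as a whole had 0.173 and 0.117 over the span from first to last gene of each chromosome. In windows of this size 1 peak is enough to exceed that level, as the 0.344 at RASSF3, the widest window, shows. For the paralogs the comparison therefore tells only whether they had a peak. RASSF6 was the highest of the 6 in both replicates.

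The strongest RASSF6 region had 4 other reproducible regions within 50 kb of its summit. As many or more were found at 100 of the 1311 regions (7.63%). Among the 10 strongest regions, RASSF6 included, 3 had as many or more. The next 3 by the smaller fold enrichment are named by the nearest gene end: DUSP4 (12.1 in replicate 1 and 14.3 in replicate 2), EIF3E (13.4 and 11.8) and KIF13B (11.3 and 13.3). In that order, their summits lay 205, 0.25 and 33.9 kb from that end. None of them had another reproducible region within 50 kb. The pileup of 128 and 98 at RASSF6 compares with values between 31 and 68 at these 3. The next 3 with a summit within 1 kb of a gene end were again the EIF3E region and those at the histone genes H2AC12 and H1-3, which had 4 and 11 others within 50 kb. The RASSF6 region was 3389 bp long, against a median of 851 bp, and 5 of the 1311 regions were as long or longer, itself included. Its summits were 2 bp apart in the 2 replicates, against a median of 91 bp, and 37 regions (2.82%) had summits as close.

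**Figure D3:**
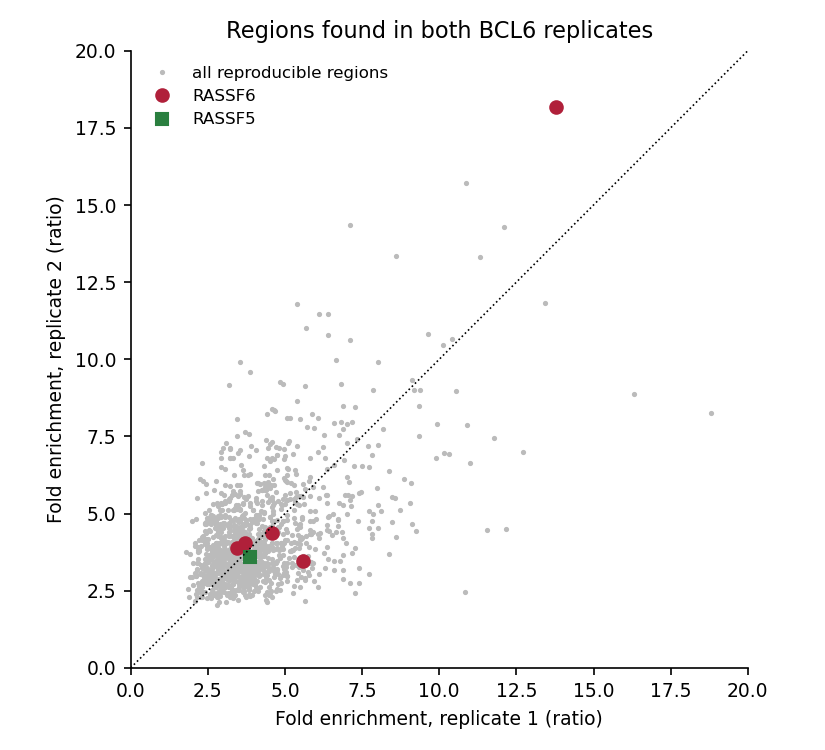
Fold enrichment in replicate 1 (x axis, ratio) and replicate 2 (y axis, ratio) of the 1311 regions found in both replicates (grey), with the 5 RASSF6 regions as red circles and the RASSF5 region as a green square; the dotted line marks equal values. One RASSF6 region stands at 13.8 and 18.2, and the other 4 and the RASSF5 region lie in the bulk of the points.

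RASSF5 was the other member with a region in both replicates, which makes 2 of 6 members, against 10.2% of all protein-coding genes. RASSF5, also called NORE1 or RAPL, binds the GTPase RAP1 and the kinase MST1 and is known for its part in lymphocyte adhesion. It runs on the plus strand of chromosome 1 from 206507531 to 206589448 and has 2 listed starts 49.6 kb apart. The region spanned 206556718 to 206557654, over the second start. Enrichment over background was 3.85-fold in replicate 1 and 3.61-fold in replicate 2. The pileup was 24 (95% Poisson interval 15.4 to 35.7) in each. The summits lay 193 and 123 bp downstream of that start, while no peak touched the window of the first start. The gene table does not pair the starts with protein isoforms. By the smaller fold enrichment the region ranked 486 of 1311.

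The other RASSF5 peaks did not overlap between lists. Replicate 1 had a peak 39.5 kb outside the gene (5.07, −log10 q 7.71), and replicate 2 had one 36.3 kb outside it (2.81, −log10 q 1.45). These lie by IKBKE, a kinase gene of the interferon pathway, with summits 3.24 kb apart. Replicate 1 had one more peak 46.2 kb past the far end, by the kinase gene DYRK3, with 3.13. That was the member peak nearest to the limit of 50 kb from inside. Just outside it, 54.3 kb from RASSF3, lay a replicate 1 peak with 3.34 in the gene TBK1.

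RASSF1, whose longer isoform is often silenced by promoter methylation in cancer, had peaks in replicate 1 alone. The gene lies on the minus strand of chromosome 3 from 50329788 to 50340836 among 12 other protein-coding genes in its window. One peak, 50337662 to 50338214, had its summit 338 bp upstream of the listed start and 3.05 kb inside the upper end of the gene. The listed start also lies inside the gene and is not paired with an isoform. Its fold enrichment was 2.57, with a pileup of 42 (30.3 to 56.8) over a background of 15.7. The antisense gene RASSF1-AS1 overlaps this peak. The other, 50350847 to 50351395, lay 10.1 kb outside RASSF1 in CYB561D2, with 3.75, a pileup of 58 and a −log10 q of 12.8. Both backgrounds, 15.7 and 14.7, were above the replicate 1 median of 5.90; whether they bear on the calls was not tested.

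RASSF2, which binds MST kinases, had 1 peak in each replicate, at different places. The gene lies on the minus strand of chromosome 20 from 4780023 to 4823608. The replicate 1 peak, 4822038 to 4822526, was 7.33 kb upstream of the listed start and 1.14 kb inside the upper end of the gene, with a fold enrichment of 3.14. The replicate 2 peak, 4814540 to 4815176, had its summit 337 bp downstream of the listed start, with 3.89. Neither had a counterpart at its own position in the other list.

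RASSF3, reported to promote p53 activity through MDM2, also had 1 peak per replicate inside the gene. It runs on the plus strand of chromosome 12 from 64506964 to 64697564, the longest member at 190.6 kb. The replicate 1 peak lay 15.2 kb downstream of the listed start, with a fold enrichment of 4.08, and the replicate 2 peak 11.3 kb downstream of it, with 3.12 and a −log10 q of 1.96. RASSF4 lies on chromosome 10 from 44959802 to 44995891. It had a replicate 2 peak alone, with 4.00, which was 5.38 kb past its far end and inside ZNF22, a zinc finger gene.

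**Figure D4:**
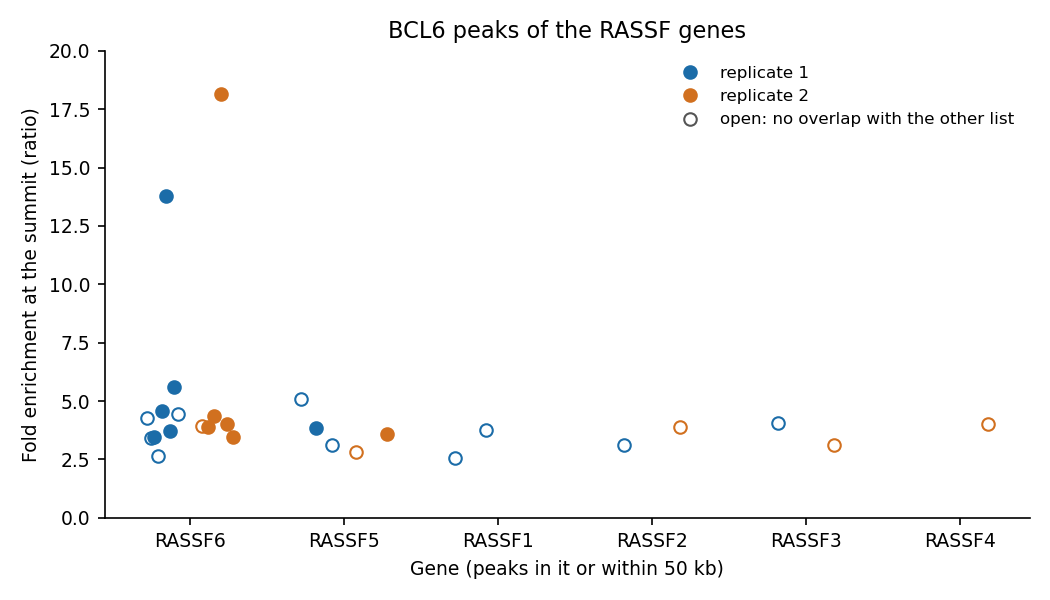
Fold enrichment at the summit (y axis, ratio) of every peak assigned to each gene (x axis), in replicate 1 (blue) and replicate 2 (orange). Filled points overlap a peak of the other list and open points do not. Apart from 13.8 and 18.2 at RASSF6, all peaks lie between 2.57 and 5.60, and the filled points belong to RASSF6 and RASSF5.

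Apart from the strongest region, the RASSF6 peaks were similar in range of strength to those of the paralogs. The 8 other RASSF6 peaks of replicate 1 had fold enrichments between 2.64 and 5.60 with a median of 3.99, and the 7 paralog peaks lay between 2.57 and 5.07 with a median of 3.75. In replicate 2 the 5 other RASSF6 peaks lay between 3.46 and 4.36 with a median of 3.94, and the 5 paralog peaks between 2.81 and 4.00 with a median of 3.61. The ranges overlapped in each replicate. At RASSF6, 5 of 9 replicate 1 peaks and 5 of 6 replicate 2 peaks overlapped a peak of the other list, while at the paralogs 1 of 7 and 1 of 5 did. The RASSF6 counts include the strongest peak of each replicate. RASSF6 was chosen for this shared region, so that overlap was given in advance. Over all peaks the shares were 25.7% for replicate 1 and 38.4% for replicate 2. None of these differences was tested.

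In single lists, most members had a peak: 5 of 6 in replicate 1 (all except RASSF4), against 29.5% of all genes, and 5 of 6 in replicate 2 (all except RASSF1), against 23.3%. Long genes have wider windows, and no allowance was made for length. Closeness to a listed start, counted after the positions had been seen, uses a window of the same size for every start. Genes with more listed starts were therefore searched more widely. RASSF6 and RASSF5 have 2 listed starts each, while each of the other members has 1. A summit within 1 kb of a listed start was found in both replicates at RASSF6 and RASSF5 (2 of 6, against 3.11% of 15812 genes with a listed start), in replicate 1 at these and RASSF1 (3 of 6, against 9.59%) and in replicate 2 at these and RASSF2 (3 of 6, against 7.3%). In at least 1 list, 4 of 6 members had one, against 13.5%. RASSF3 and RASSF4 had none. With 6 genes chosen in view of these peaks, the counts describe the family and test nothing.

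**Figure D5:**
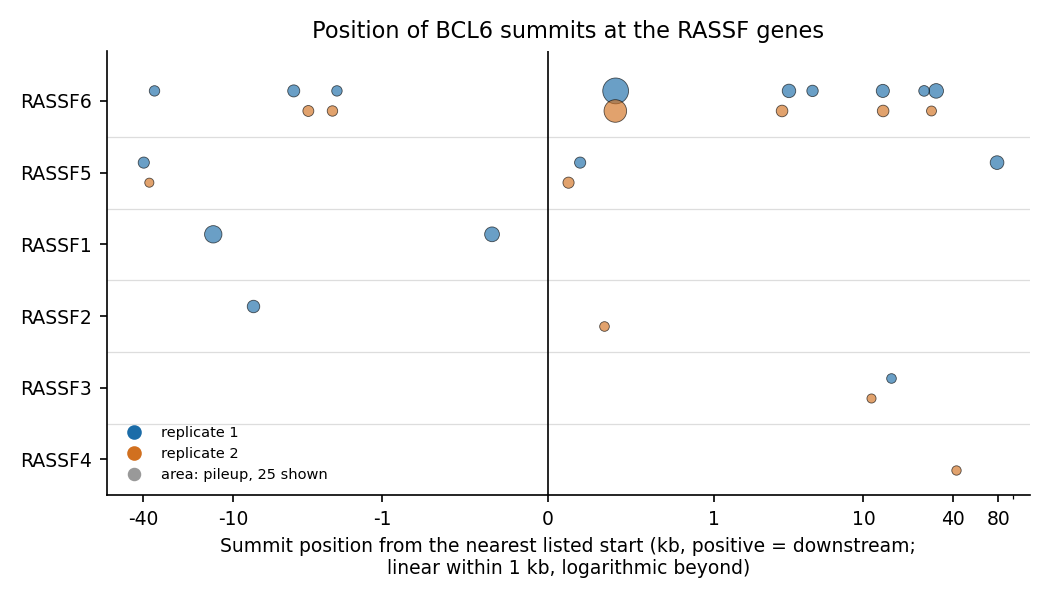
Position of every assigned summit relative to the nearest listed start of its gene (x axis, kb, downstream positive, linear within 1 kb and logarithmic beyond) for the 6 genes (y axis). Blue points are replicate 1, orange points are replicate 2, and the area of a point follows its pileup. Some but not all summits of RASSF6, RASSF5, RASSF1 and RASSF2 lie within 1 kb of a start, and all those of RASSF3 and RASSF4 lie 11.3 kb or more downstream.

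The N-terminal RASSF genes, RASSF7 to RASSF10, lack the SARAH domain and are more distant relatives. Of these 4, RASSF8 had a reproducible region, inside the gene on chromosome 12 from 26017523 to 26018018, with fold enrichments of 3.63 in replicate 1 and 4.45 in replicate 2. That makes 1 of 4, against 10.2% of all protein-coding genes. The window of RASSF8 was the widest of the 4, at 222 kb. RASSF7, RASSF9 and RASSF10 had no peak of either list in their windows.

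Genes that act with the RASSF proteins were then counted by the same rule, against the 10.2% of all genes. Of 24 Hippo pathway genes, 4 had a reproducible region (16.7%): SAV1, MOB1B, PTPN14 and TEAD2. A replicate 1 peak was found at 11 of the 24 and a replicate 2 peak at 8, against 29.5% and 23.3% of all genes. SAV1 is the scaffold that couples MST to LATS kinases through its own SARAH domain. It was the 1 gene of the 24 with a reproducible summit within 1 kb of a listed start, against 3.11% of genes with a listed start. That summit lay at 929 bp, with fold enrichments of 6.64 in replicate 1 and 4.41 in replicate 2. The region in MOB1B, a cofactor of LATS kinases, had 3.45 and 4.06, and that in PTPN14, a phosphatase that binds YAP, had 3.59 and 2.87. The TEAD2 region lay outside this transcription factor gene and nearest to SLC6A16, with 3.31 and 2.32.

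Among the RAS and RAP GTPases, RAP1A, the partner of RASSF5, had a reproducible region inside the gene with fold enrichments of 3.27 in replicate 1 and 3.31 in replicate 2, and one 33.9 kb outside it, nearest to ADORA3, with 4.16 and 3.84. Of 6 other partners, CDC20, a mitotic activator that RASSF1 binds, had one outside the gene and 427 bp from its listed start, with 2.76 and 4.73. MOAP1, MDM2, PAWR, DAXX and MAP1S had no reproducible region. Counting each replicate alone, 5 of the 6 partners had a replicate 1 peak and 4 had a replicate 2 peak. The shares of all genes were 29.5% and 23.3%. In the lists described here, no gene had more than 2 reproducible regions, against 5 at RASSF6.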

How the data were processed

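BCL6 CUT&RUN peaks of 2 replicates were used. The submitters' processing notes name build hg38, the aligner Bowtie2, the peak caller MACS2 and the tools cutadapt, FastQC, Picard, SAMtools, deepTools and bedtools, while versions, settings and the peak caller's control were not stated. The deposited lists hold, per peak and per replicate, a fold enrichment (ratio), −log10 of p and q, a summit, and a score equal to 10 times the −log10 q, which was not used.

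The pileup and background at each summit were solved from the deposited fold enrichment, taken as (pileup + 1) / (background + 1), and the Poisson −log10 p. They matched within 0.001 for 5233 of 5237 and 3532 of 3536 peaks. The step was also tested on simulated data made with the same formulas, which checks the solving and not the formulas themselves. The median pileups of 23 and 21 mean that a typical peak rests on few fragments. Peaks sharing at least 1 bp were merged, and regions that held peaks of both lists are termed reproducible. Its summit is that of the peak with the higher −log10 q. Genes were matched by symbol to a RefSeq table of GRCh38.p14, and starts and strands were taken from RefSeq promoter windows, which covered 15812 of 19974 protein-coding genes and all 6 members. The RASSF members, gene lists and rules for naming genes were chosen with earlier results of these data known. The rule named all members, RASSF7 to RASSF10, list genes with a reproducible region and the 3 regions next in strength. CD69, FOXP1, LPP, UBQLN1, RNF11, the neighbouring genes of single-list peaks and list genes without a region were named after their values had been seen. Coordinates are 1-based hg38. Some results of the list of RAS and RAP GTPases are not reported here. No test was run. Alternatives were other windows, overlap rules, −log10 q minima, rankings, a tighter pileup tolerance and single replicates. Python 3.11.15, pandas 2.3.3, NumPy 2.4.6 and SciPy 1.17.1 were used.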

Additional observations from a re-analysis of the deposited data

How the results depend on the processing

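Of 36 alternative values, 20 stayed at or within 1.5 times the main value and 16 moved. The pileups under a tighter tolerance are among the 20 but could not move, since the tolerance decides only whether a pileup is accepted. A minimum −log10 q of 5 left 1 member with a reproducible region (RASSF6), 3 with a replicate 1 peak and 1 with a replicate 2 peak, and 3 regions at RASSF6. A minimum of 10 left 1, 2 and 1 members, and 1 region at RASSF6. The matching shares of all protein-coding genes were 4.49%, 14.1% and 9.82% at 5, and 2.39%, 4.92% and 3.43% at 10. The RASSF5 region was lost at both minima. The 5 regions at RASSF6 became 3 within the gene body, where overlap had to be reciprocal over 50% of both peaks and where summits had to lie within 200 bp. Without replicate 1 or without replicate 2, single-list peaks were counted in place of reproducible regions. In each case 5 members had a peak, against 23.3% and 29.5% of all genes, and RASSF6 had 6 and 9. The strongest RASSF6 region ranked 3 by the smaller summit pileup and between 1 and 3 with 1 replicate left out. It ranked 1 by the smaller −log10 q and under both stricter overlap rules. Windows of 10 kb and 100 kb changed no count of members, while the share of all genes with a reproducible region was 5.78% and 15.1%. For a replicate 1 peak the share was 17.7% and 40.6%, and for a replicate 2 peak it was 13.3% and 32.8%. Pileups near 20 limit what can be compared between the weaker peaks, and a peak missing from a list does not show that BCL6 was absent. No paired analysis was possible because the peak lists analysed here are of the BCL6 group alone, which leaves no second group to pair with it.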

Other observations

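A stronger region lay beyond the window of RASSF8, 76.7 kb outside the gene on chromosome 12 from 26155621 to 26157209. It was inside SSPN, with BHLHE41, a transcriptional repressor gene, as the nearest gene end at 31.6 kb. It was enriched 8.03-fold in replicate 1 and 5.28-fold in replicate 2. The pileup was 70 (95% Poisson interval 54.6 to 88.4) and 63 (48.4 to 80.6). It ranked 110 of 1311 by the smaller fold enrichment.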
